A study of Mus musculus with 21 samples.

Results

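Cells that had been drug-free for 5 passages after acquired resistance (P5) were compared here with the never-treated cells of the same murine PDAC lines (Parental). P5 libraries exist for lines #3, #7 and #9, so the comparison took the 3 P5 and the 3 Parental libraries of these lines, 6 of the 21 libraries of the series, paired by line. All lines came from primary tumours of mice with the allele Ptf1a wt/Cre and with homozygous Trp53 loxP/loxP among their alleles, in which a Cre driven by the Ptf1a locus deletes Trp53 in the pancreas, and all states of a line carry the alleles of their mouse. Parental cells never received a MEK inhibitor, Resistant cells were growing in trametinib at 100 times the IC50 of their line, and P5 and P12 cells were Resistant cells kept without the drug for 5 or 12 passages. The description of the P5 libraries of lines #7 and #9 gives 12 drug-free passages, whereas their titles and group labels give 5. The group labels were followed, and the conflict could not be settled from the files. There is 1 library for each line and state, which makes the lines the replicates. Each line is 1 culture from 1 mouse, and all differences cover Parental cells against cells that had passed through months of selection in drug. The question was which transcripts had not returned to the Parental level early after withdrawal, and which had passed beyond it.

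Trametinib blocks MEK1 and MEK2, the kinases that activate ERK. Active ERK induces its own brakes, among them the DUSP phosphatases, which remove phosphate from ERK, and the Sprouty and Spred proteins, which act upstream on RAS and RAF, as well as transcription factors such as the PEA3 group member Etv4. Transcripts of this feedback layer are short-lived and are widely used as a readout of ERK pathway output. Ductal pancreatic cancer cells are epithelial cells with keratins, E-cadherin and tight junctions, and in culture they can lose these features and take up a mesenchymal programme.

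The estimated depth of the 6 libraries was 24.1 to 42.7 M reads (M for mega), at which 3 reads correspond to 2.31 to 3.97 normalized counts. Of 34478 listed genes, 18101 were tested. Over these genes, each P5 library was most similar to the P12 library of its own line (Pearson's r of 0.808, 0.832 and 0.833 for lines #3, #7 and #9, on log2 values centred over 12 libraries). To its own Parental library the correlation was 0.447 in line #7 and 0.336 in line #9, but -0.336 in line #3. With its own Resistant library it was 0.372, 0.302 and 0.411 for lines #3, #7 and #9, so only P5 of line #7 was closer to Parental than to Resistant by this measure. P5 of line #3 correlated at 0.0645 with Parental of line #9, above the value for its own Parental library, and at -0.388 with Parental of line #7. The genes Eif2s3y and Uty on the Y chromosome were at 881 or more in both libraries of line #3. They were at 14.1 or less in the other 4, as the stated sexes of the mice require. The P5 library of line #3 thus did not go against its line label by the Y genes, which cannot separate it from other lines of male mice. Among ductal markers, Krt8, Krt18, Krt19 and Sox9 were present in all 6 libraries while Epcam was at 0 to 3.61, and in line #9 the 3 keratins were at 546 to 11364 in Parental cells, below the other lines. Acinar and endocrine markers were near 0 except Cela1 (49.1 to 256).

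Between P5 and Parental cells 4 genes passed the test (limma on the 12 libraries of the 3 lines with the line as a block, Benjamini-Hochberg adjusted p below 0.05 and a log2 difference beyond 1). Tenm3 and Foxd1 rose, 2 genes or 0.011% of the tested genes, and Cldn6 and Cdcp1 fell, again 2 genes or 0.011%. Tenm3 encodes a teneurin, a large transmembrane adhesion protein known from neuronal wiring, and Foxd1 a forkhead transcription factor of stromal progenitors in the kidney. Cldn6 encodes claudin 6, a tight junction protein of embryonic epithelia, and Cdcp1 a transmembrane substrate of SRC family kinases on epithelial cells. The RefSeq start regions of the 4 genes (GRCm38.p6, 250 bases before to 50 after the start, read 5′ to 3′ on the strand of the gene) are shown because these are the genes that the comparison turned on, with every CpG dinucleotide in capitals.
Tenm3, chr8:48674641-48674940, minus strand: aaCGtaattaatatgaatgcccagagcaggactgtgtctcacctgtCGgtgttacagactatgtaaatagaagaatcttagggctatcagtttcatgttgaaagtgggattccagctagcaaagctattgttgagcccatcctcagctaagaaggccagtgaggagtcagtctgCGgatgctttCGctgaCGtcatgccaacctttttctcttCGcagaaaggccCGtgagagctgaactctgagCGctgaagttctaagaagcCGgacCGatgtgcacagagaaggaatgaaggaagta
Foxd1, chr13:98353995-98354294, plus strand: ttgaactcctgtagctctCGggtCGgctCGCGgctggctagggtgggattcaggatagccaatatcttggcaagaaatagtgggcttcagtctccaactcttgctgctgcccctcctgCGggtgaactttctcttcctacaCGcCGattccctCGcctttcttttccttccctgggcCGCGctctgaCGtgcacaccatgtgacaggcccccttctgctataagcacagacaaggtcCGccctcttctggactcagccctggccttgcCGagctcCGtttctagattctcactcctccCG
Cldn6, chr17:23679115-23679414, plus strand: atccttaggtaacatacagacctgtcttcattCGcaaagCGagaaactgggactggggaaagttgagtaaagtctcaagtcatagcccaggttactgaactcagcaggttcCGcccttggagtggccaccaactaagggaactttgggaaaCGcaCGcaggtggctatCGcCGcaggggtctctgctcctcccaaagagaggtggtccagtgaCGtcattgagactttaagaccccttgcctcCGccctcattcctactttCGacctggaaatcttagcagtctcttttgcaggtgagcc
Cdcp1, chr9:123215989-123216288, minus strand: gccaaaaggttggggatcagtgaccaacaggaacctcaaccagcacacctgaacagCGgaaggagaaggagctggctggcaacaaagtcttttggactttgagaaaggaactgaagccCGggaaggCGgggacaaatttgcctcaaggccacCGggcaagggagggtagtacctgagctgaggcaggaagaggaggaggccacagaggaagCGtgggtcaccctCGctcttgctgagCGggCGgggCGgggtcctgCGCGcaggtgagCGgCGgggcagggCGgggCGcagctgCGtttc
The windows hold 10 CpG in Tenm3, 15 in Foxd1, 10 in Cldn6 and 16 in Cdcp1. Of 15076 such windows of tested genes, 27.2% held fewer than 10 CpG, 38.5% fewer than 15 and 41.05% fewer than 16. Methylation was not analysed here, and the counts describe the sequence only. In these bulk libraries fewer cells with a transcript and less of it per cell cannot be told apart.

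Tenm3 stood at 162, 45.8 and 274 normalized counts in the Parental libraries of lines #3, #7 and #9 and at 6415, 1788 and 8222 in P5. The lowest P5 library lay above the highest Parental library, and the 3 paired log2 differences, 5.30, 5.26 and 4.90, were close to each other. The fitted log2 difference was 5.15 (SE 0.24, adjusted p = 0.000143). Resistant cells held 6051, 2300 and 17685 and P12 cells 3962, 1771 and 8124, so all drug-experienced libraries of these lines were above all Parental ones.

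Foxd1 was at or below the level of 3 reads in Parental cells, with 0, 2.31 and 2.64, and at 35.2, 172 and 286 in P5. The groups did not overlap, and the fitted log2 difference was 5.73 (SE 0.55, adjusted p = 0.019), a value that depends on the pseudocount because the Parental level is at the detection limit. It was 50.5, 562 and 752 in Resistant and 11.4, 36.8 and 158 in P12 cells, which puts P5 between these states in each line.

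Cldn6 was listed at 0 in all 3 P5 libraries and at 4313, 5971 and 1048 in Parental cells. The mean of the Parental libraries (3778) was at least 1258 times the mean floor of 3 reads in the P5 libraries (3.00). This is a ratio of means and not a bound for each line. The fitted log2 difference of Cldn6 was -11.55 (SE 0.72, adjusted p = 0.000824). Its levels were 0, 4.07 and 1.26 in Resistant cells and 0 in all 3 P12 libraries. Cldn6 thus met the filter of 10 normalized counts in at least 3 libraries through the 3 Parental libraries alone. Values listed at 0 show no spread between lines, and they enter the spread behind this p-value. The adjusted p from limma was 0.000805 without a filter and 0.0894 with a mean of at least 100.

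Cdcp1 fell from 1581, 2059 and 400 to 44.5, 6.18 and 1.37 (log2 difference -6.90, SE 0.74, adjusted p = 0.0372). The highest P5 value, in line #3, stayed far below the lowest Parental value. Resistant cells held 1.32, 4.34 and 0, below the P5 library of the same line in all 3 lines.

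**Figure D1:**
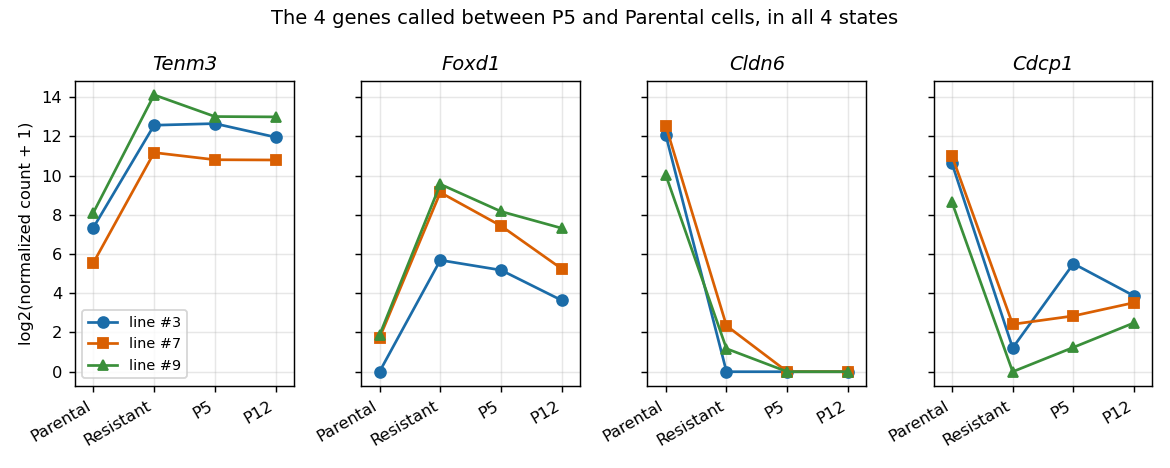
Normalized counts on the log2(value + 1) scale of the 4 called genes in the 4 states of lines #3, #7 and #9, 1 point per library, lines joining the states of a cell line. Tenm3 and Foxd1 sit above and Cldn6 and Cdcp1 below the Parental level in every Resistant, P5 and P12 library.

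All 4 called genes had the same direction in Resistant as in P5 cells, relative to Parental, in 3 of 3 lines, and none of the called genes was on the opposite side. Both differences use the same Parental libraries, so this is a description. At an unadjusted p below 0.05 there were 1756 genes, 855 of them higher and 901 lower in P5. The number of calls depended on every line, since limma called 0 genes without line #3 (939 at an unadjusted p below 0.05), 1 without line #7 (Cyp1b1, which is not among the 4) and 0 without line #9 (1744). The differences themselves stayed about as large when a line was left out, at 5.08 to 5.28 for Tenm3 (adjusted p = 0.0512 to 0.0882 from limma), 5.44 to 6.00 for Foxd1 and -7.78 to -6.26 for Cdcp1. A limma fit over all 21 libraries with the block called 23 genes, of which 2 were among the 4 (Cldn6 and Cdcp1), a fit of the 12 libraries without the block called 1 (Cldn6), and a fit of the 6 compared libraries called 0, with 1114 genes at an unadjusted p below 0.05. The further description uses a plain rule set after these counts were known, namely that a gene differed by more than 1 on the log2 scale in the same direction in each of the 3 lines. By this rule 374 genes were higher in P5 (2.07% of those tested) and 260 lower (1.44%). It is a description without a test, and genes given below have an adjusted p of 0.05 or more unless they are among the 4. Between P5 and P12 cells the limma fit of the 12 libraries with the block called 0 genes (51 at an unadjusted p below 0.05). Between P12 and Parental cells it called 5. The differences described here were therefore not shown to be particular to 5 passages without drug.

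Of the 374 higher genes, 181 were also above Parental in Resistant cells in 3 of 3 lines, 20 were below it in 3 of 3 and 173 were mixed. Of the 260 lower genes, 196 were also below Parental in Resistant cells, 5 were above and 59 were mixed. The genes on the same side are called not restored here and those on the opposite side overshooting. Both differences use the same Parental library of each line, which by itself pushes their signs to agree. The same split over all tested genes is not given here, so an excess of genes on the same side cannot be read from these counts. The RefSeq start regions of the higher and lower genes had fewer CpG in the median than those of all tested genes, which were not matched to them for expression level. The 296 windows of the 225 higher genes that matched by symbol had a median of 7 CpG and the 211 windows of the 165 matched lower genes 14, against 19 over the 15076 windows of 11826 tested genes. The AP-1-like motif TGANTCA, which reads the same on both strands, was in 11.1% of the windows of higher and 7.58% of those of lower genes, against 5.76% of all. These shares are descriptions without a test, and a match is not a bound site.

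**Figure D2:**
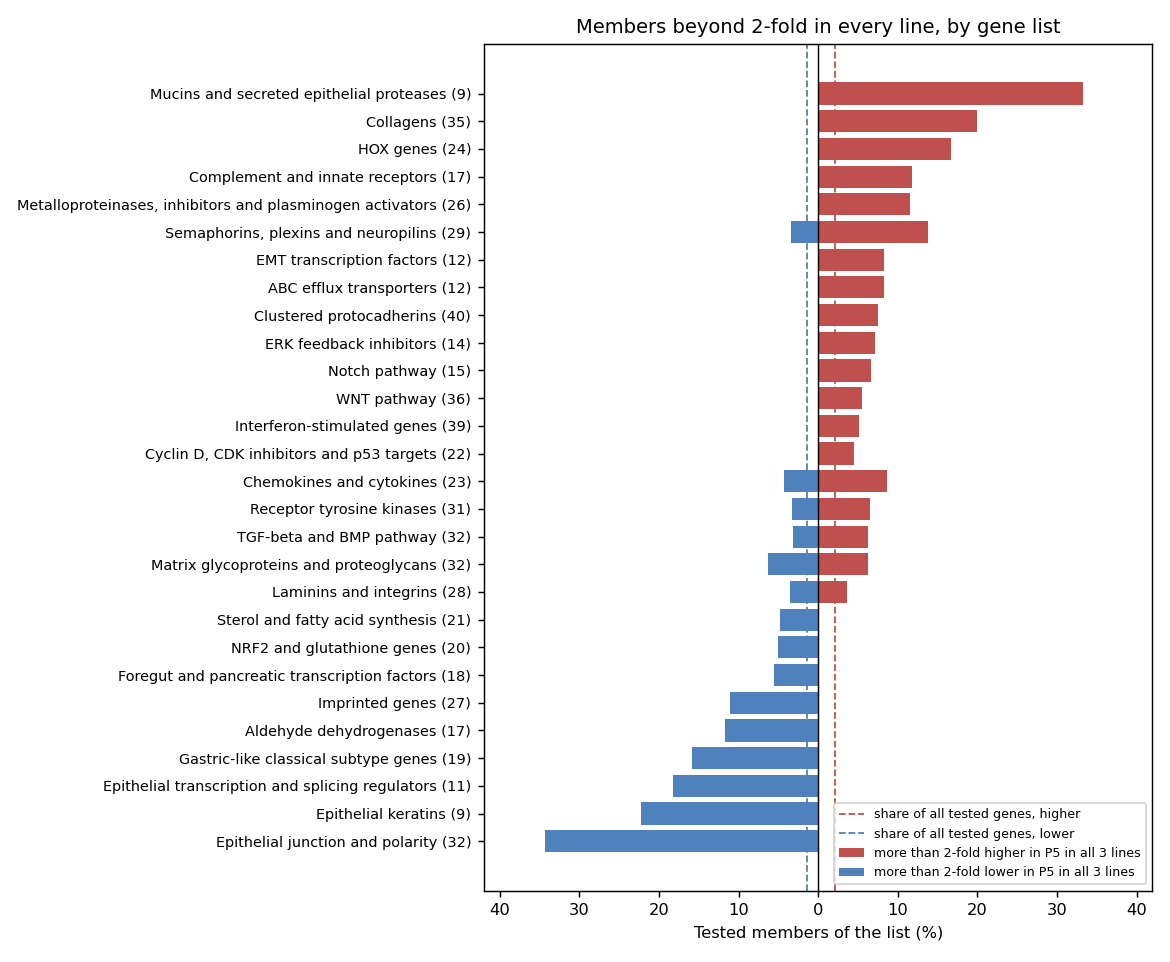
Share of the tested members of each gene list that were more than 2-fold higher (right) or lower (left) in P5 than in Parental cells in all 3 lines, with the number of tested members in brackets and the shares of all tested genes, 2.07% and 1.44%, as dashed lines. Epithelial junction genes reach the highest share on the lower side with 11 of 32, and 13 further lists with no such member are not drawn.

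Epithelial junction and polarity genes were the group with the most members below Parental in every line. Of 32 tested members, 11 were lower beyond 2-fold in all 3 lines and 0 higher, 1 was called (Cldn6), and the median log2 difference was -1.80 against 0.02 over all tested genes. The list medians were -2.76, -0.69 and -1.66 in lines #3, #7 and #9. In these lines 3, 8 and 5 members were higher in P5 than in Parental. Cdh1, which encodes E-cadherin, the main adhesion protein of epithelia, stood at 27906, 53229 and 816 in Parental and at 2106, 17116 and 46.2 in P5 cells. Line #9 thus began at a low level, and the fitted difference was -3.16 (95% interval -5.54 to -0.78, adjusted p = 0.409). Resistant cells held 73.1, 16401 and 8.68. P5 was below Parental in each line and above Resistant in lines #3 and #9, while in line #7 it was close to Resistant. Ocln, which encodes the tight junction protein occludin, was at 798, 2969 and 526 in Parental and at 16.1, 714 and 7.38 in P5. Cldn7, another claudin, was at 566, 717 and 3.06 against 14.1, 5.00 and 0. In line #9 both Cldn7 values were under the level of 3 reads, so no decrease was measurable there. The scaffold gene Tjp3 (ZO-3) was at 850, 1388 and 5.26 against 14.7, 34.5 and 0. Spint1 and Spint2, inhibitors of membrane serine proteases, and Prss8, one such protease, were lower in each line too. Spint1 was at 1839, 2799 and 155 in Parental and at 330, 146 and 5.00 in P5. Patj, a polarity scaffold, was at 2388, 2534 and 1137 against 761, 823 and 236, with no overlap between the groups. Marveld2 (tricellulin) and Cgn (cingulin) complete the 11.

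Keratin genes split by line. Krt8, Krt18 and Krt19, keratins of simple epithelia, were close to Parental in P5 of line #7, with paired log2 differences of 0.06, 0.02 and 0.68. In line #3 the same differences were -3.16, -3.24 and -4.10, and in line #9 they were -1.95, -6.51 and -6.35. Krt18 for example was at 56640, 55391 and 11364 in Parental and at 5980, 56041 and 123 in P5 cells. Krt7 and Krt20 were lower in all 3 lines, 2 of 9 tested keratins, and Krt20 went from 5747, 8280 and 14.6 to 18.0, 413 and 1.07. Among the epithelial transcription and splicing regulators 2 of 11 were lower in every line. One was Elf3, an ETS factor of epithelia, at 2432, 2914 and 261 in Parental and 175, 531 and 27.1 in P5, and the other Foxq1.

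Gastric-like and foregut genes mark the classical subtype of PDAC. Of 19 tested gastric-like genes 3 were lower in every line, with a list median of -1.86. Tff1, a secreted trefoil peptide of gastric mucosa, was at 773, 7379 and 31.2 in Parental and 12.6, 42.7 and 0 in P5. Ctse, the gastric protease cathepsin E, was at 6380, 8901 and 47.8 against 21.1, 895 and 1.04. The 18 foregut and pancreatic transcription factors had medians of -4.21, -0.81 and 0.24 in lines #3, #7 and #9, and in line #9 10 of them were higher in P5. Of these 18, only Pdx1 was lower beyond 2-fold in all 3 lines, with 1346, 1712 and 955 in Parental and 430, 846 and 13.9 in P5. Hnf4a, a master regulator of gut and liver epithelium, was at 8546, 15312 and 50.04 in Parental and at 229, 9366 and 0.649 in P5. Its paired difference of -0.71 in line #7 contrasts with -5.22 and -4.95 in lines #3 and #9, and in Resistant cells it had been at 5.02, 713 and 0. Cdx2, an intestinal homeobox gene, was at 2086, 670 and 703 against 76.7, 360 and 48.1.

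The 21 tested sterol and fatty acid synthesis genes had a median log2 difference of -0.76, and in lines #3 and #7 all but 1 of them were below Parental. In line #9 the median was -0.19 and 7 of the 21 were higher in P5. Fdps and Mvd, enzymes of the mevalonate pathway, had fitted differences of -1.59 and -1.67, with the P5 libraries of both genes below all Parental libraries. Glutathione transferase Gstm1 was the 1 of 20 NRF2 and glutathione genes lower in all 3 lines, with 2066, 12383 and 4378 against 884, 964 and 2182. The aldehyde dehydrogenases Aldh1a7 and Aldh1l1 were 2 of 17. Gstm1 and Aldh1a7 have close paralogues that can share reads.

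Imprinted genes, expressed from 1 parental allele, had 3 of 27 tested members lower in every line and none higher, but the lines split. In line #3, 21 of the 27 were higher in P5 (median 2.21), against 3 in line #7 (median -1.81) and 6 in line #9 (median -1.22). Nnat, which encodes a membrane proteolipid, was at 151, 56.7 and 36.7 in Parental and at 0, 0 and 1.03 in P5 (log2 difference -5.77, adjusted p = 0.121). The noncoding RNA Meg3 was at 64.7, 157 and 159 against 15.01, 3.00 and 5.29. Snrpn was lower as well. Peg3, a zinc finger gene, followed this split and was higher in P5 of line #3 (100139 against 15528) and far lower in line #7 (24.9 against 20144) and line #9 (103 against 10375).

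Collagens were on the higher side, most clearly in line #3. Of 35 tested collagens, 7 were higher beyond 2-fold in every line and 0 lower, with medians of 4.81, 0.89 and 0.69 in lines #3, #7 and #9. Col6a1, a chain of microfibrillar collagen VI, was at 55.4, 255 and 1631 in Parental and at 12086, 2581 and 3965 in P5, with no overlap between the groups. Its partners Col6a2 and Col6a3 were among the 7 as well. Col16a1 was at 18.1, 138 and 1254 against 3886, 640 and 2895, and Resistant cells held 7545, 6719 and 7369. Col1a1, the main fibrillar collagen, did not follow in line #7, at 438 in Parental and 248 in P5, whereas it went from 42.5 to 16221 in line #3 and from 4650 to 23298 in line #9. Of 7 fibroblast markers, which include Col1a1, 6 reached 10 in at least 1 of the 6 libraries and Lum was at 6.32 or less. Their summed level was 112 to 10431 in Parental and 373 to 75721 in P5 cells, lowest in P5 of line #7. Whether fibroblasts took a part in the collagen values was not tested.

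Matrix glycoproteins and proteoglycans had medians of 3.86, -0.25 and -0.050 in lines #3, #7 and #9, so its median was clearly above 0 in line #3 only. Tnc and Mgp were the 2 of its 32 members that were higher in every line. Tnc encodes tenascin C, an adhesion-modulating matrix protein, and was at 363, 1.58 and 315 in Parental and 6746, 54.1 and 2127 in P5 (log2 difference 3.79, 95% interval 2.43 to 5.16, adjusted p = 0.214). Matn2 and Igfbp3 were lower in every line. Acan, the cartilage proteoglycan aggrecan, was at 6135, 1488 and 779 against 3.75, 749 and 8.54. Dcn, the proteoglycan decorin, was at 51487, 1424 and 268 in Resistant cells and at 806, 1.92 and 247 in P5, against 19.8, 3.11 and 2.90 in Parental, so line #7 was back at the level of 3 reads or less and the other lines were not.

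HOX genes set the body axis in development. In P5 of line #3 their median was 7.52 log2 units above Parental, with 23 of 24 tested members higher, against 0.00 in line #7 and 0.80 in line #9. Hoxa9 was listed at 0 in all 3 Parental libraries and stood at 2094, 0 and 27.4 in P5 and at 3043, 0.612 and 97.1 in Resistant cells. Hoxa5, Hoxb3, Hoxb6 and Hoxc13 were higher in all 3 lines, the last 3 at 50.6 normalized counts or less in every P5 library. Clustered protocadherins had 3 of 40 members higher in every line, Pcdhb16, Pcdhb17 and Pcdhb18, related copies among which reads may be divided. The median over all 40 members was 3.06, -0.82 and 0.16 in lines #3, #7 and #9.

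**Figure D3:**
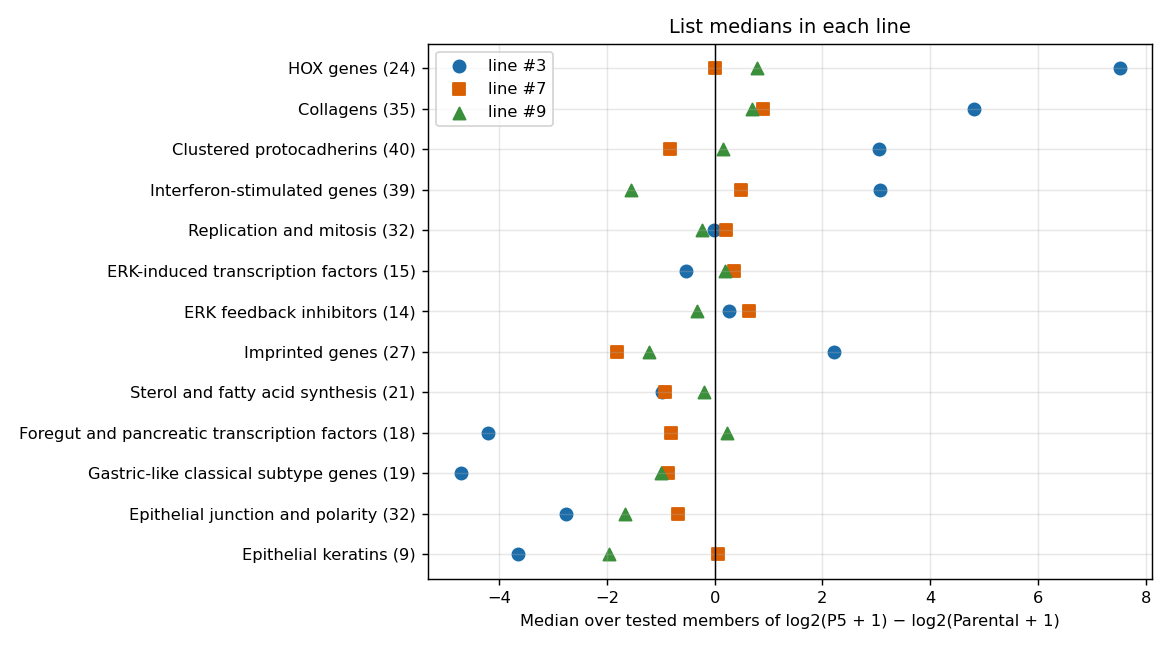
Median over the tested members of 13 gene lists of the paired difference between P5 and Parental cells on the log2(value + 1) scale, 1 point per line, with the number of tested members in brackets. Line #3 has the widest spread, from -4.71 for gastric-like genes to 7.52 for HOX genes, while both ERK lists lie between -0.54 and 0.63 in all 3 lines.

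As a list, the ERK feedback inhibitors were near the Parental level in P5 cells, while single genes differed between lines and the intervals of several were wide. Of 14 tested feedback inhibitors none was called and none had an unadjusted p below 0.05, and the list medians were 0.26, 0.63 and -0.32 in lines #3, #7 and #9, against -1.44, -1.95 and -3.64 in Resistant cells. Dusp6, the ERK-specific phosphatase, was at 9309, 9449 and 8049 in Parental, at 60.7, 681 and 4.49 in Resistant and at 8352, 18671 and 4664 in P5 cells. The P5 values lay on both sides of the Parental ones, and the difference was 0.01 with a 95% interval from -2.29 to 2.32. Spry4, a Sprouty protein, was at 1212, 1084 and 983 in Parental and 1569, 2185 and 1375 in P5. All P5 libraries were above all Parental libraries, by 0.62 on the log2 scale (95% interval -0.56 to 1.80, adjusted p = 0.74). Etv4 was at 2705, 1931 and 6573 in Parental, at 4.58, 1.28 and 1.62 in Resistant and at 5618, 6127 and 7834 in P5 cells. It was above Parental in 3 of 3 lines, by 0.99 (95% interval 0.06 to 1.93, adjusted p = 0.491). Etv5, another PEA3 factor, was not higher throughout, with differences of 0.69, -0.59 and 0.34 and an interval of -0.49 to 0.78 around 0.15. Egr1, an immediate-early zinc finger gene, had an interval of -0.43 to 0.96 around 0.26. Dusp2, a phosphatase mainly of immune cells, was the only one of the 14 inhibitors beyond 2-fold higher in each line, at 0, 0.689 and 252 against 382, 2.78 and 1207, with line #7 at the level of 3 reads.

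Among the 15 ERK-induced transcription factors no gene was beyond 2-fold in 3 lines. The largest fitted differences were on the higher side, with wide intervals. Egr3, a zinc finger gene related to Egr1, was at 23.6, 12.3 and 1962 in Parental and 933, 68.3 and 2341 in P5, a difference of 2.63 (95% interval -0.54 to 5.80). Etv1, the third PEA3 factor, went from 18.4 to 1662 in line #3 and was near Parental in the other lines, with paired differences of 0.35 and 0.07. Egr2 had paired differences of 4.23, -0.21 and 2.11. Myc was at 8742, 7230 and 15120 in Parental and at 1224, 7557 and 10772 in P5, so that line #3 alone stood apart. Fosl1, an AP-1 subunit, had differences of -1.20, 0.90 and -2.45. None of the 19 core RAS-ERK genes was beyond 2-fold in every line. Trp53 transcripts were at 334, 288 and 289 against 441, 348 and 245. Replication and mitosis genes had no member beyond 2-fold in 3 lines among 32 tested and a median of -0.09.

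**Figure D4:**
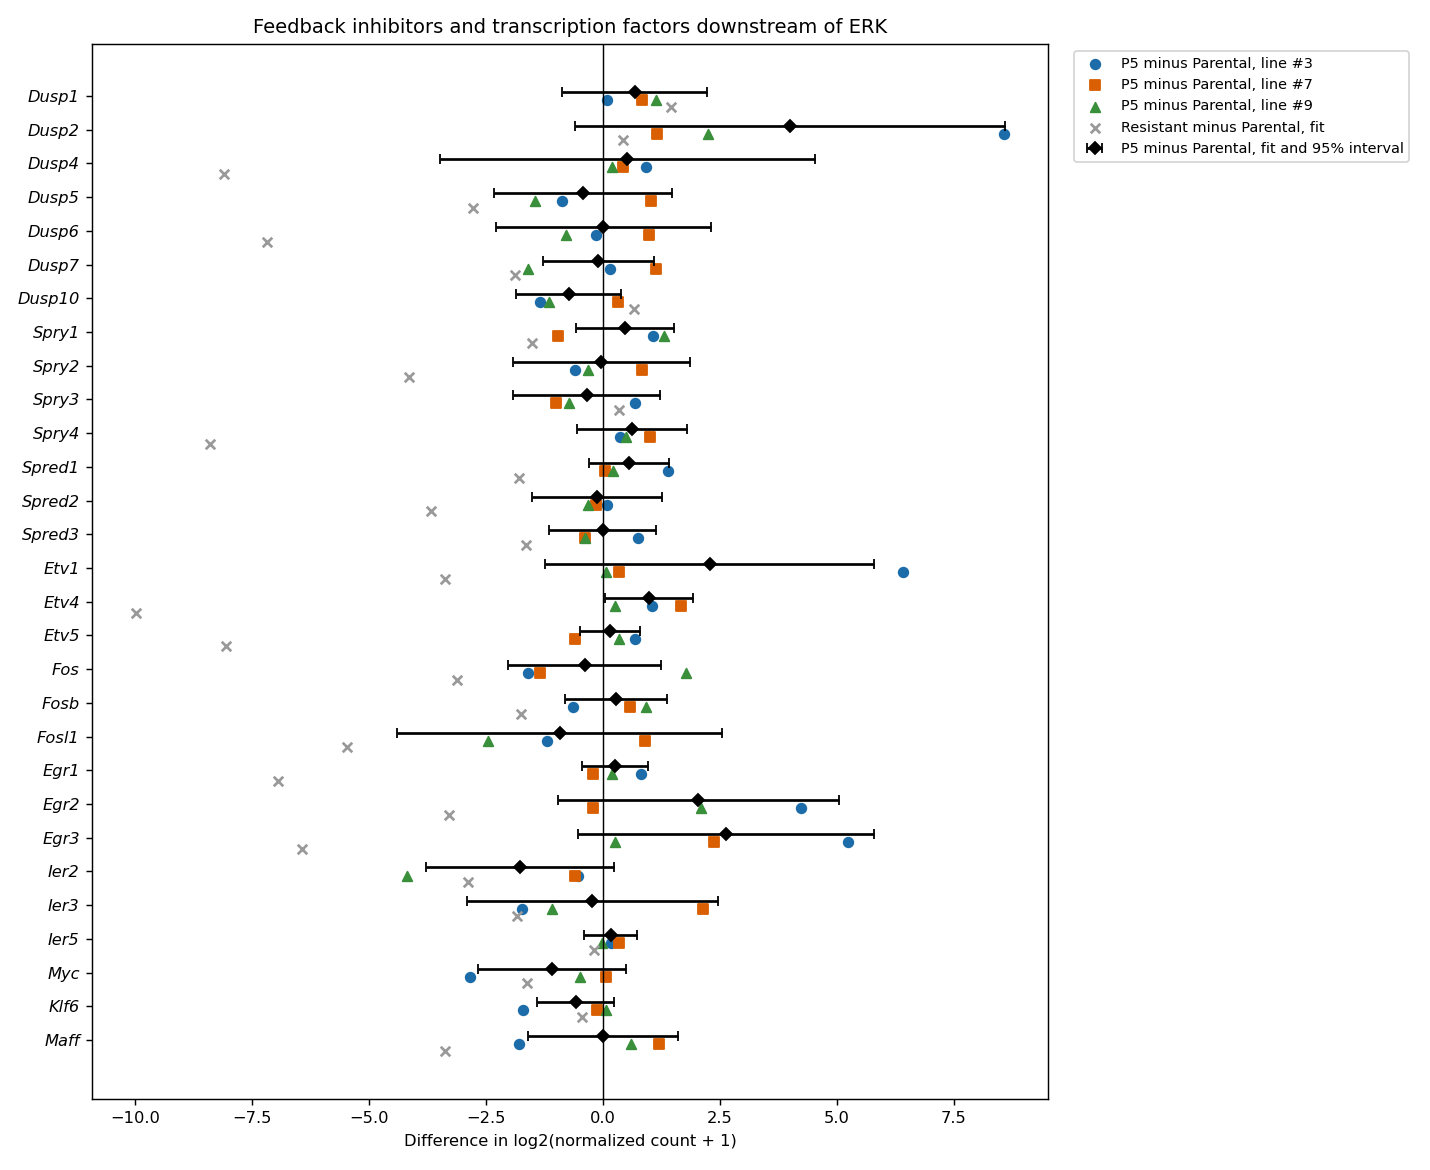
Difference between P5 and Parental cells on the log2(value + 1) scale for the 29 tested members of the lists of ERK feedback inhibitors and ERK-induced transcription factors, with the fitted value and its 95% interval (black), the 3 lines (coloured) and the fitted difference between Resistant and Parental cells (grey crosses). Of the 29 black intervals 28 include 0, all but that of Etv4, and the grey crosses lie left of 0 for 25 genes and right of it for Dusp1, Dusp2, Dusp10 and Spry3.

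Overshooting genes, on one side of Parental in Resistant and on the other in P5 cells in each of the 3 lines, numbered 20 on the higher and 5 on the lower side. The 2-fold limit applied to P5 against Parental only, and on the Resistant side the sign alone counted. A3galt2, for example, had differences of -0.29, -0.44 and -0.14 between Resistant and Parental. Platr26 was under the level of 3 reads in both states, so no decrease in drug was measurable. The overshooting genes were picked by these values, so the values describe them. Ace, the angiotensin-converting enzyme, was at 556, 343 and 442 in Parental, at 15.5, 8.22 and 67.8 in Resistant, at 2316, 2931 and 3404 in P5 and at 3214, 2628 and 4495 in P12 cells. The groups did not overlap, and the fitted difference between P5 and Parental was 2.70 (95% interval 1.56 to 3.84, adjusted p = 0.257). Megf10, an engulfment receptor, was at 231, 54.9 and 5573 in Parental, at 5.04, 20.9 and 10.996 in Resistant and at 5333, 2180 and 12298 in P5. Disp2, a relative of the Hedgehog release protein Dispatched, was at 48.9, 90.0 and 144 in Parental, at 6.17, 8.55 and 5.59 in Resistant and at 2278, 441 and 981 in P5. Rgs5, a brake on G protein signalling best known from pericytes, was at 5.94, 1.51 and 22.1 in Parental and 639, 767 and 61.4 in P5, while Resistant cells were at 1.012, 1.00 and 7.37. In line #7 both Parental and Resistant were under the level of 3 reads, so no decrease in drug was measurable there. Sema7a, a membrane-anchored semaphorin, was at 54.2, 74.6 and 195 in Parental, at 6.94, 65.5 and 1.20 in Resistant and at 418, 359 and 878 in P5, so that in line #7 Resistant was close to Parental. Irf8, an interferon regulatory factor of myeloid cells, was at 28.3, 26.9 and 21.3 against 114, 89.6 and 256, and Cd300lb, a myeloid receptor, at 40.4, 13.5 and 192 against 515, 168 and 445. Of the 4 leukocyte markers found, 2 reached 10 (Cd68 and Ptprc), Cd3e was below 1 in all 6 libraries, and Ptprc was at 12.4 to 20.0 in Parental and 8.28 to 18.7 in P5. The leukocyte markers summed to 133 to 225 in Parental and 169 to 416 in P5 cells.

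Cgn, the tight junction protein cingulin, had the highest level among the overshooting genes on the lower side. It was at 5567, 8462 and 492 in Parental, at 14868, 11813 and 1261 in Resistant and at 1244, 1981 and 215 in P5, a difference of -1.82 (95% interval -2.45 to -1.18, adjusted p = 0.205). P12 cells stood at 1355, 2195 and 217. It therefore belonged to the junction genes below Parental without having been lost in drug. Ptprd, a receptor phosphatase, was at 928, 316 and 16.9 in Parental, 6767, 1947 and 88.5 in Resistant and 235, 56.5 and 5.90 in P5. The others were Cables1, Map7d2 and the transcript AC113508.4, all below 100 normalized counts in both groups.

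**Figure D5:**
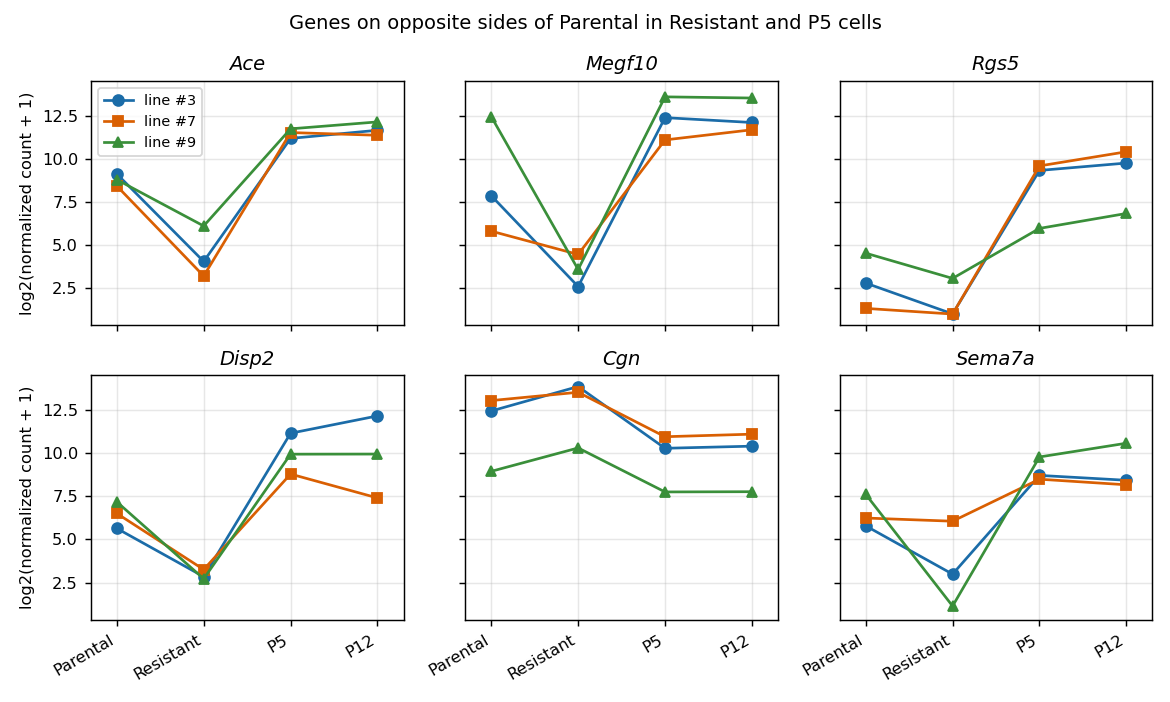
Normalized counts on the log2(value + 1) scale of 6 genes, chosen after their values were seen, that lay on opposite sides of Parental in Resistant and P5 cells, 1 point per library and 1 line per cell line. Ace, Megf10, Rgs5, Disp2 and Sema7a are lowest in Resistant and highest in P5 or P12 cells, and Cgn is highest in Resistant cells.

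Some further genes were higher in P5 in every line. Of 9 tested genes in the list of mucins and secreted epithelial proteases, 3 were higher in every line, all of them mucins. Muc5b, a gel-forming airway mucin, was at 14.1, 844 and 10.6 in Parental, at 49.4, 32.5 and 7.49 in Resistant and at 3304, 64365 and 171 in P5, a difference of 5.97 (95% interval 3.21 to 8.74, adjusted p = 0.274). The intestinal mucin Muc2 went from 4.31, 7.42 and 2.00 in Parental to 912, 206 and 6.48 in P5, and was at 50.01, 8.39 and 2.74 in Resistant cells. In line #9 the Parental value of Muc2 was under the level of 3 reads. Muc16 was at 8.51, 0 and 0 in Parental and at 21.2, 150 and 7.54 in P5. In Resistant cells it was at 15371, 2917 and 0. Mgp, which inhibits calcification of matrix, was at 0, 0 and 1670 in Parental, at 1.05, 0 and 729 in Resistant and at 801, 199 and 14299 in P5 (log2 difference 6.80, 95% interval 4.01 to 9.58, adjusted p = 0.249). Agt, the precursor of the peptide that Ace cleaves, was at 0, 9.22 and 0 in Parental and at 471, 715 and 50.3 in P5. Plvap, a protein of endothelial fenestrae, was at 2.01, 0.769 and 51.7 against 107, 850 and 715. All 4 endothelial markers reached 10 in at least 1 library, with sums of 36.8 to 59.4 in Parental and 56.0 to 166 in P5 cells, and Cdh5 was at 114 in P5 of line #7 against 3.89 or less in the other 5. Their part in the Plvap value was not tested.

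Secreted signals and receptors moved in smaller numbers. Snai1, a transcription factor that represses Cdh1, was the 1 of 12 EMT factors higher in every line, at 1.00, 11.5 and 289 in Parental and 533, 91.0 and 971 in P5. The monocyte chemokines Ccl2 and Ccl7 were higher and the neutrophil chemokine Cxcl5 lower in each line, 3 of 23 tested chemokines and cytokines. Ccl2 was at 3.05, 3.14 and 1102 against 813, 442 and 4015, and Cxcl5 at 1118, 7135 and 318 against 114, 1854 and 10.0. Sema3d, Sema3f, Plxna4 and Sema7a were higher and Sema4g lower, 5 of 29 semaphorins, plexins and neuropilins. Sema3f, which repels endothelial cells and axons, was at 545, 849 and 519 against 1721, 2646 and 1398. Pdgfrb and Ror1 were higher and Fgfr4 lower among 31 receptor tyrosine kinases. Fgfr4, the receptor of a gut hormone that curbs bile acid synthesis, was at 1677, 1013 and 1.89 against 8.24, 13.6 and 0. In line #9 both Fgfr4 values were under the level of 3 reads. The activin subunits Inhba and Inhbb were higher and the activin antagonist Fst lower among 32 genes of the TGF-beta and BMP pathway. Fst was at 197, 105 and 173 in Parental and at 3.62, 13.5 and 31.0 in P5. Axin2, a feedback target of WNT signalling, and Wnt6 were the 2 of 36 WNT pathway genes, with Axin2 at 14.0, 9.65 and 50.7 against 144, 312 and 115. Mmp9, Adamts4 and Serpinb2 were higher among 26 proteinase and inhibitor genes, and Mmp9, a gelatinase, was at 1.54, 0.587 and 39.4 against 897, 15.01 and 227.

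Single members were higher beyond 2-fold in each line in 4 further lists, namely Abca1, a cholesterol exporter, 1 of 12 ABC efflux transporters, Plk2, 1 of 22 cyclin, CDK inhibitor and p53 target genes, Notch4, 1 of 15 Notch pathway genes, and Lama4, 1 of 28 laminins and integrins. In the last list Itgb6 was lower. The complement genes C1s1 and C4b were 2 of 17 and the interferon-stimulated genes Ifi27 and Ifi27l2a 2 of 39, both higher. In line #9 Ifi27l2a was under the level of 3 reads in Parental (0) and in P5 (2.22), so no increase was measurable there. Interferon-stimulated genes as a list had medians of 3.07, 0.49 and -1.56 in lines #3, #7 and #9, so lines #3 and #9 were on opposite sides. No member was beyond 2-fold in 3 lines among the AP-1 subunits (11 tested), EGFR family ligands (9), mesenchymal cytoskeleton and adhesion genes (17), DNA methylation writers, readers and erasers (19), MHC class I genes (15), YAP-TEAD genes (16), ATF4 genes (17), glycolysis and hypoxia genes (21), S100 proteins (11) and the sex chromosome genes (5), nor in the ERK-induced factors, core RAS-ERK genes and replication genes above. Cdh2, which encodes N-cadherin, was at 4499, 3182 and 3905 in Parental, at 18543, 29631 and 10012 in Resistant and at 9506, 5064 and 6022 in P5. All P5 libraries were above all Parental libraries, by 0.79 on the log2 scale (95% interval -0.13 to 1.72, adjusted p = 0.571).

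The lines differed in how far P5 was from Parental. In line #3, 4070 genes were more than 2-fold higher and 2803 lower, against 2383 and 2287 in line #7 and 2213 and 2466 in line #9, each from 1 library per state. Of the tested genes, 4344 were above 2-fold in exactly 1 line and 374 in 3 lines, and 2315 genes (12.8%) were above 2-fold in 1 line and below it in another. Across genes, the paired differences had a Pearson correlation of 0.195 between lines #3 and #7, 0.149 between #7 and #9 and 0.0545 between #3 and #9 over the 18101 genes, which are not independent of each other. In P5 of line #7, Krt8, Krt18, Krt19 and Hnf4a were near Parental while Krt7 and Krt20 were not, and the HOX median was 0.00. Line #3 had low keratins, collagens and HOX genes at high levels, and line #9 was low in epithelial transcripts from the start.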

How the data were processed

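RNA of 21 libraries from murine PDAC lines was sequenced, and the 12 libraries of lines #3, #7 and #9 in the states Parental, Resistant, P5 and P12 were used here. Groups came from the sample labels. Per the labels and the study's methods, the authors prepared stranded mRNA libraries, demultiplexed with CASAVA 2.17 or bcl2fastq 2.19, trimmed with Skewer, used Salmon 0.12 on mm10 transcripts, collapsed the estimates to genes in TXImport and normalized with DESeq2 1.18. The deposited table holds these values as signal, normalized estimated counts that are not whole, so the tests are made for log values and not for counts. Sequencers of 2 models are named but not assigned to samples, and no value within a sequencer could be given. A number of 3 reads was taken as the detection floor, from the step between low values of a library, on which 42.4% to 66.2% of its low values fell, and intervals or floors of this kind cover counting error only.

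A pseudocount of 1 was added before the log2, so that fold changes of low genes are understated, and genes with at least 10 normalized counts in at least 3 of the 12 libraries were tested. The test was limma 3.58.1 (R 4.3.3; lmFit, contrasts, eBayes with trend) over the 4 states with the line as a block, and Benjamini-Hochberg adjustment over 18101 genes. P5 and Parental libraries are paired because they come from the same cell line. Their deviations from the group means correlated with 0.558 in line #7, 0.491 in line #9 and -0.112 in line #3. The deviations of P5 of line #3 correlated at 0.230 with those of Parental of line #9 and at -0.223 with those of Parental of line #7. With 3 pairs an exact test of a single gene cannot pass 0.05, so only the fit across all genes was used. Its p-values measure how much the differences between states vary from line to line. That spread is pooled over all 4 states and moderated across genes, so it is not the spread of the 3 pairs of P5 and Parental libraries alone. On simulated data for P5 against Parental with 17530 genes tested, 164 of 200 changed genes were recovered, 88 of 100 at a log2 change of 3, with 10 false calls. The changed genes were drawn from genes well above the detection floor in all 12 libraries. The noise was normal and independent between libraries, with no other change between states. Genes near 0 in a state, such as Cldn6 and Foxd1, were not simulated, so these rates do not apply to them.

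The comparison, the 41 gene lists and the markers were chosen with earlier results of these data known, and the lists were written from general knowledge. Named by rule were called genes with at least 50 normalized counts in all libraries of the higher state, up to 3 tested members per list with the largest difference where none was called (up to 4 called ones otherwise), and Cdh1, Cdh2, Etv4, Dusp6, Spry4, Cldn6, Dcn and Trp53, while a few items that the rules name are not reported here. Foxd1 falls outside this rule by its level of 35.2, and all other genes were chosen after their values were seen, by the rule of more than 2-fold in each of the 3 lines or as examples of a function. Alternatives were pseudocounts of 0.5 and 8, no filter, a mean of at least 100, upper quartile scaling, no block, all 21 or only the 6 compared libraries, no trend, an adjusted p below 0.01 and each line left out. Start regions are from RefSeq. Python 3.11.15, pandas 2.3.3, numpy 2.4.6 and matplotlib 3.10.9 were used.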

Additional observations from a re-analysis of the deposited data

Results flagged for a closer look

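Peg3, an imprinted zinc finger gene, moved in opposite directions in the lines, each by more than 1 on the log2 scale. The paired difference between P5 and Parental was 2.69 in line #3 and -9.60 in line #7, with -6.64 in line #9. The difference between the lines was not tested, since each line has 1 library per state. The groups compared hold 3 libraries, so single libraries were not tested as outliers.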

How the results depend on the processing

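The number of called genes was small and moved with the fit. It was 4 in the report and 1 with a mean of at least 100 (1 higher, 0 lower), 1 with no replicate block (0 higher, 1 lower), 23 over all 21 libraries with the replicate block (11 higher, 12 lower), 9 over all 21 without it (1 higher, 8 lower), 0 in the 6 compared libraries with the replicate block (0 higher, 0 lower; 1114 at an unadjusted p below 0.05) and 2 at an adjusted p below 0.01 (1 higher, 1 lower). A pseudocount of 8 gave 1 gene on the higher side and a pseudocount of 0.5 gave 1 on the lower side. With 1 line left out, 0 to 1 genes were called, 0 to 1 higher and 0 to 0 lower, whether or not genes were filtered again. Cldn6 then failed the filter by construction, and among the same genes its adjusted p was 0.112 to 0.22. The adjusted p ranged over all alternatives from 8.11e-05 to 0.411 for Tenm3, 0.00535 to 0.807 for Foxd1, 2.94e-09 to 0.29 for Cldn6 and 0.000691 to 0.715 for Cdcp1. Their direction was the same in every alternative that gave a value, and the cause of the lost calls was not tested.

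The genes beyond 2-fold in each of the 3 lines numbered 374 higher and 260 lower. They were 166 and 171 with a pseudocount of 8, 151 and 143 with a mean of at least 100, and 570 higher without a filter. Upper quartile scaling moved the median of all tested genes from 0.02 to 0.08. Small differences changed sign in a few genes. Dusp6 was -0.068 over all 21 libraries with the replicate block. With 1 line left out, Dusp6 ranged from -0.47 to 0.41 (negative without line #7), Etv5 from -0.12 to 0.52 and Egr1 from -0.014 to 0.50 (both negative without line #3). The number of reads limits statements on genes near 3 reads, such as Foxd1 in Parental and Dusp2 in line #7.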
